A study of Oncorhynchus mykiss with 42 samples.

Results

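Rainbow trout testis at stage III of development was compared before culture and after 96 h in a medium without added gonadotropin. The comparison took 9 of the 42 arrays of the series, chosen by their titles: 3 arrays of uncultured tissue (T0) and 6 arrays of hormone-free culture (Ctrl). The animals were all-male population rainbow trout, and nothing in the labels ties a sample to a fish. T0 is whole testis that was not cultured (time 0 h). Ctrl fragments were kept at 12 °C on membrane inserts in modified L15 with Ultroser SF, and the medium was renewed at 48 h. For the question whether a gonadotropin takes the changed clones back towards T0, 6 stage III arrays cultured with purified salmonid FSH and 6 with LH, each at 500 ng/mL, were set beside them. Stage I-II tissue (3 T0 and 6 Ctrl arrays) served to show where stage III differed. A further 6 FSH and 6 LH arrays of stage I-II, also at 500 ng/mL for 96 h, gave the stage I-II hormone changes. Each array was a membrane of spotted cDNA clones hybridised with one radioactively labelled cDNA sample.

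In trout, numbered testis stages follow spermatogenesis from a testis that holds mostly spermatogonia to one filled with sperm, so the cell types present change with stage. FSH and LH are pituitary hormones that act through receptors on the somatic cells of the testis, the Sertoli and Leydig cells, and fragments in culture without them have lost this input along with blood supply and pituitary control. The files give clones by ID and do not pair them with genes, and 0 of the 8175 clone IDs with values were found among the identifiers of the 72772 genes of the trout assembly USDA_OmykA_1.1. Clones are therefore named by ID alone, with no known function. The tissue label could not be checked against marker genes. In whole-tissue RNA, fewer cells of a type and less RNA per cell cannot be told apart.

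Values are the authors' log2 values, already brought to nearly the same distribution on every array, with array medians from 7.15 to 7.17. They give levels relative to the rest of the array, so a change here is relative to all clones. On the scanner scale the median clone signal ran from 98 to 167 intensity units over the 9 arrays, and 58.7% to 73.2% of clone positions exceeded the background threshold of their array. In a principal component analysis of all stage III arrays the first component (32.4% of the variance) held the T0 arrays at 43.1 to 45.4 and every cultured array between -11.2 and -4.7. The second component (10.9%) spread arrays within groups. Ctrl replicates 58 and 60 lay at 16.5 and 14, and the other Ctrl arrays at -13.9 to -7.4. T0 replicate 6 lay at 13.7, and replicates 4 and 5 at -6.6 and -9.9. FSH arrays ran from -10.1 to 5.5 and LH arrays from -0.3 to 21.7. The source of this spread was not tested. The difference between 2 arrays, as the SD of their log2 difference over clones, had a median of 0.68 between T0 and Ctrl (0.64 to 0.73 over 18 pairs). It was 0.39 within T0 (3 pairs) and 0.45 within Ctrl (15 pairs, 0.37 to 0.54), so every pair of a T0 and a Ctrl array lay farther apart than any pair within either group.

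Hormone-free culture changed a large part of the stage III clones relative to the rest of the array. Rises and falls were about equally frequent. That balance is partly set in advance, because the values have nearly the same distribution on every array. A shift of all clones in one direction could not appear. Of 8175 clones, 1321 rose and 1374 fell, at a Benjamini-Hochberg adjusted p under 0.05 in limma, which was 33.0% of all clones (16.2% higher, 16.8% lower). At an unadjusted p under 0.05 there were 3390. Sizes are given for the clones whose lower group had an array above background on the scanner scale, since the others have only a bound. Of 1036 such clones that rose, 361 rose at least 2-fold and 45 at least 4-fold. Of 1227 that fell, 213 fell at least 2-fold and 3 at least 4-fold. Their median size was a log2 change of 0.81 for those that rose (1.75-fold) and 0.65 for those that fell (1.57-fold). Over all 8175 clones the median change was -0.04 and the median size 0.30. The 3 T0 and 6 Ctrl arrays did not overlap for 981 of the clones that rose and 964 of those that fell, together 23.8% of all clones. With or without a call, they did not overlap for 26.4%. These calls took their estimate of spread from all 42 arrays of the series. With only the 9 T0 and Ctrl arrays in the fit, 2136 clones were called, 2090 of them among the 2695. With each of the 9 arrays left out of the full fit in turn, 2107 to 2719 clones were called.

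**Figure D1:**
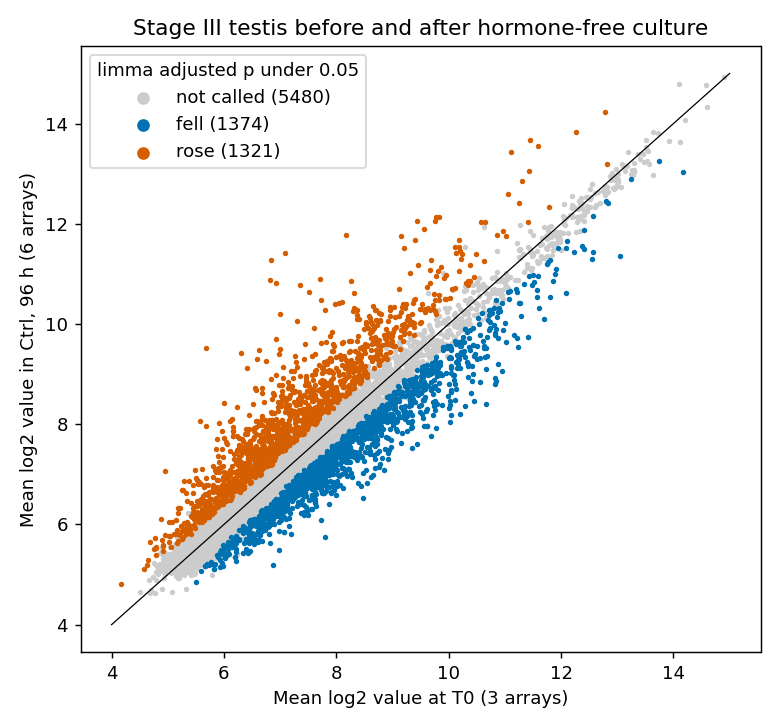
Mean log2 value of each of 8175 clones at T0 (x axis, 3 arrays) and in hormone-free culture (y axis, 6 arrays) of stage III testis; the line marks equal values and colours mark limma calls. In deposited values the 1321 clones that rose reach up to a log2 change of 4.44 and the 1374 that fell down to -2.26, and dim clones at the lower left have only bounds.

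Calls were more frequent among brighter clones, in both directions. With clones split into 4 bins by the mean of their T0 and Ctrl group means, 17.4% were called in the lowest bin, 30.5% in the second, 37.8% in the third and 46.2% in the highest. Rises went from 10.6% in the lowest to 20.5% in the highest bin, and falls from 6.85% to 25.6%. Which direction was the more frequent in a bin depended on the level used for the split. By the mean over all 42 arrays, 36 of them cultured, a clone that rose in culture is itself moved to a brighter bin. In that split rises went from 6.31% to 27.6% and falls from 11.6% to 19.3%. By scanner signal, 285 of the clones that rose were not well above background on any T0 array, and 147 of those that fell were not well above it on any Ctrl array. For 117 of the called clones neither group had an array above background, so their log2 changes lie in the range of the background signal.

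Clone IDs begin with different letter codes, whose meaning the files do not give, and calls were spread over all of the larger ones. Among the 8 starts with at least 100 clones, the share called ran from 29.5% of 2834 clones (1rt) to 38.8% of 255 (tcac). The 1rt clones had a share of rises of 16.2%, equal to the share over all clones, and of falls of 13.3%. The tcac clones had 14.1% rises and 24.7% falls. The other 6 starts lay between 15.3% and 20.1% for rises and between 17.3% and 20.4% for falls. These shares are a description, with no test between them.

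Among clones with no overlap of T0 and Ctrl arrays, 1rt39g22_c_d11 and 1rt146k24_c_f12 rose the most in the deposited values, far above their T0 range. Clone 1rt39g22_c_d11 read 6.55, 6.93 and 7.04 on the T0 arrays. On the Ctrl arrays it ran from 10.74 through a median of 11.45 to 11.51. All 6 Ctrl arrays lay far above all 3 T0 arrays. The means were 6.84 ± 0.26 (SD, n = 3) and 11.28 ± 0.31 (SD, n = 6), so the clone rose 21.7-fold (limma adjusted p = 9.5e-23, log2 change 4.44 ± 0.20 SE). In a fit on the T0 and Ctrl arrays alone its limma adjusted p was 1.2e-09. With FSH it ran from 11.03 to 11.77 and with LH from 10.92 to 11.61, so the 3 cultured groups overlapped. Its FSH and LH changes from Ctrl were 0.02 ± 0.16 SE and 0.07 ± 0.16 SE (limma adjusted p = 0.99 and 0.92). In stage I-II the same clone rose 13.6-fold, and the difference between stages was 0.67 ± 0.28 SE (limma adjusted p = 0.14).

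Clone 1rt146k24_c_f12 read 6.96, 7.01 and 7.31 at T0. On the Ctrl arrays it ran from 11.02 through a median of 11.39 to 11.76. The groups were again far apart. The means were 7.09 ± 0.19 (SD, n = 3) and 11.42 ± 0.26 (SD, n = 6), so the clone rose 20.1-fold (limma adjusted p = 1.2e-25, log2 change 4.33 ± 0.16 SE). In a fit on the T0 and Ctrl arrays alone its limma adjusted p was 7.9e-10. FSH and LH arrays, at 10.77 to 11.52 and 11.25 to 11.85, lay in or near the Ctrl range (limma adjusted p = 0.91 and 0.89). In stage I-II it rose 12.5-fold. The difference in log2 change between stages, 0.68 ± 0.22 SE, just passed the threshold (limma adjusted p = 0.049). This clone was chosen on its stage III change, which is part of that difference.

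Among clones with no overlap of T0 and Ctrl arrays, tcba0024.p.18 and tcay0027.m.22 had the lowest log2 changes in the deposited values. Dim clones leave this rank uncertain. Clone tcba0024.p.18 read 10.26, 10.85 and 10.89 at T0. On the Ctrl arrays it ran from 7.78 through a median of 8.44 to 8.86. No Ctrl array came within 1 log2 unit of a T0 array. The means were 10.67 ± 0.35 (SD, n = 3) and 8.41 ± 0.37 (SD, n = 6), a 4.78-fold fall (log2 change -2.26 ± 0.17 SE, limma adjusted p = 1.2e-14). In a fit on the T0 and Ctrl arrays alone its limma adjusted p was 3.2e-06. The position matched to it touches a spot over 4 times brighter. With FSH it ran from 7.72 to 8.43 and with LH from 7.92 to 8.45, neither group nearer to T0 than Ctrl was. In stage I-II it fell 9.32-fold, and the difference between stages was 0.96 ± 0.24 SE (limma adjusted p = 0.0072). The stage III change on which it was chosen is part of that difference.

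Clone tcay0027.m.22 read 7.58, 7.90 and 7.90 at T0. On the Ctrl arrays it ran from 5.35 through a median of 5.74 to 6.06. It was above background on 3 of 3 T0 arrays and not well above background on any cultured stage III array, so only a bound holds. On the scanner scale it was at least 2.29-fold lower in Ctrl than at T0 (limma adjusted p = 4.7e-12 for the deposited values, whose means were 7.79 ± 0.18 and 5.75 ± 0.26, SD, n = 3 and 6). In a fit on the T0 and Ctrl arrays alone its limma adjusted p was 1e-06. FSH and LH arrays, at 5.14 to 5.93 and 5.54 to 6.20, were in the same dim range.

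**Figure D2:**
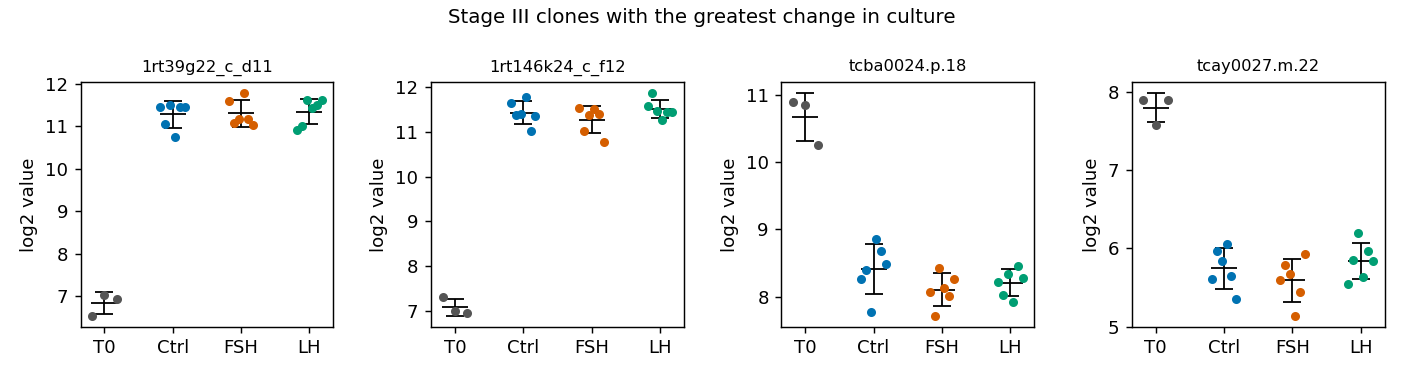
Log2 values of the clones that culture raised most (1rt39g22_c_d11, 1rt146k24_c_f12) and lowered most (tcba0024.p.18, tcay0027.m.22) in the deposited values of stage III, among clones with no overlap of T0 and Ctrl arrays, by group (points, 1 per array: 3 T0 and 6 each of Ctrl, FSH and LH; bars, mean ± SD). In each panel the cultured groups sit together, away from T0.

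Neither hormone brought the changed clones as a body back towards T0. The median over the 1321 clones that rose was 6.97 to 7.03 on the T0 arrays and 7.89 to 7.94 on the Ctrl arrays. It was 7.87 to 7.98 on the FSH arrays and 7.81 to 7.98 on the LH arrays. Both hormone groups spanned the Ctrl range, far from T0. Over the 1374 clones that fell, the median was 8.01 to 8.10 at T0 and 7.26 to 7.44 in Ctrl. It was 7.33 to 7.42 with FSH and 7.31 to 7.42 with LH, within the Ctrl range. The same median over all clones was 7.15 to 7.17 on every stage III array. The clones were chosen on the T0 and Ctrl arrays, so the distance between those groups is set partly by the choice, and no test was made.

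**Figure D3:**
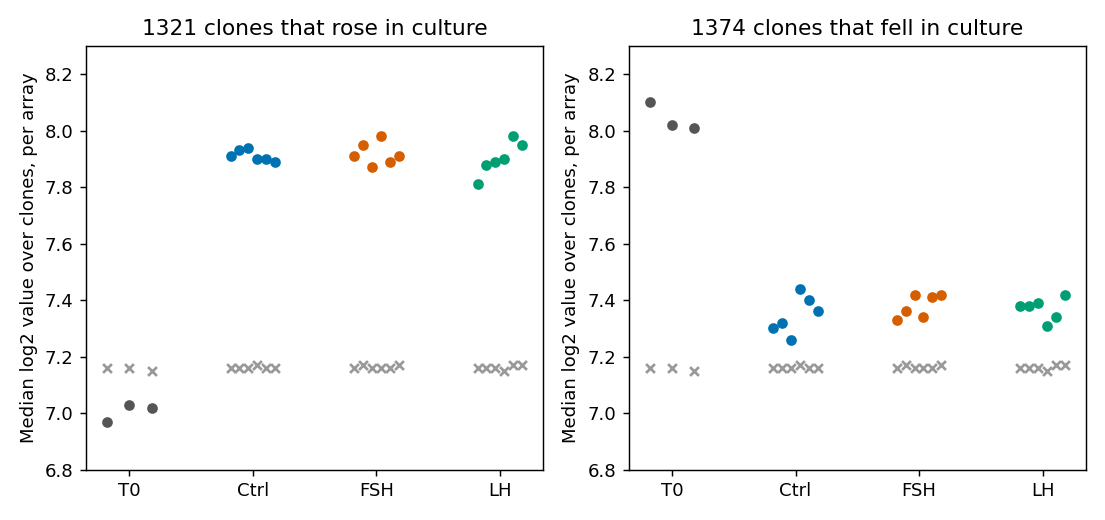
Median log2 value per stage III array over the 1321 clones that rose in culture (left, circles) and the 1374 that fell (right, circles), with the median over all clones as grey crosses; each mark is 1 array of T0, Ctrl, FSH or LH. The FSH and LH arrays lie with the Ctrl arrays in both panels.

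Clone by clone, most of the culture change was still called in the presence of either hormone. Of the 2695 changed clones, 2228 (82.7%) were also called in FSH against T0 in the same direction, 1100 higher and 1128 lower. With LH it was 2161 (80.2%), 1097 higher and 1064 lower. Over all clones, 34.0% were called in FSH against T0 (16.4% higher, 17.6% lower) and 32.9% in LH against T0 (16.2% higher, 16.7% lower). For 1961 clones the call held with both hormones. None was called in the opposite direction against T0. The remaining 467 and 534 clones missed the threshold against T0, which does not show that they returned. All of these comparisons share the 3 T0 arrays.

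A small number of changed clones were moved back by a hormone, and about as many were moved farther from T0. FSH against Ctrl called 113 of 8175 clones, 1.38%, of which 0.771% were higher and 0.612% lower. Among the 2695 culture-changed clones, FSH moved 41 back (1.52%), lowering 35 that culture had raised and raising 6 that culture had lowered. It moved 36 farther, raising 33 that culture had raised and lowering 3 that culture had lowered. LH against Ctrl called 46 of 8175 clones, 0.563% (0.44% higher, 0.122% lower). Before adjustment, 659 clones had a limma p under 0.05 for FSH against Ctrl and 789 for LH against Ctrl. Which hormone had more calls thus depended on the adjustment. LH moved 13 back (0.482%), lowering 6 and raising 7, and 15 farther, raising 14 and lowering 1. The shares moved back count 1 direction only. In either direction, FSH called 2.86% of the culture-changed clones and 0.657% of the rest. LH called 1.04% of the culture-changed clones and 0.328% of the rest. The hormone and culture comparisons share the 6 Ctrl arrays, so nothing is read from these shares beyond the counts. When only the groups of each comparison entered the fit, FSH moved 21 back and 14 farther, and LH 3 and 5. Without Ctrl replicate 55, LH moved 8 back, and without Ctrl replicate 60 it moved 18 back.

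Of the 41 clones that FSH moved back, 8 were also moved back by LH, 6 lowered and 2 raised by both hormones. No clone was moved back by one hormone and farther by the other. Both hormone comparisons and the culture comparison use the same Ctrl arrays. Moves in one direction with both hormones are therefore partly set by those arrays, and nothing beyond the counts is read from them. The lower group had an array above background for 39 of the 41 FSH clones, whose FSH change had a median size of 0.66 on the log2 scale (0.45 to 1.02), with 1 clone at 2-fold or more. For 11 of the 13 LH clones the median was 0.60 (0.50 to 0.93), and none reached 2-fold. With the hormone present, 23 of the 41 FSH clones and 6 of the 13 LH clones were still called against T0 in the direction of the culture change. The other 18 and 7 were not called against T0, and none was called past it. The stage I-II values of these clones enter none of these differences, although all 42 arrays share the estimate of spread behind the calls. They gave a call in the same direction for 26 of the 41 in FSH against Ctrl, where 1.71% of all clones were called (1.11% higher, 0.599% lower). For LH it was 8 of the 13, where 2.97% of all clones were called (1.66% higher, 1.31% lower). None of these clones had an opposite call in stage I-II.

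Among culture-raised clones that FSH moved back, 1rt69n20_d_g10 and tcay0025.a.09 had the lowest FSH changes in the deposited values. The first is dim, so its rank is uncertain. Clone 1rt69n20_d_g10 read 5.39, 5.71 and 5.94 at T0 and ran from 6.58 through 6.82 to 7.0 in Ctrl. With FSH it ran from 5.06 through 5.79 to 6.23, below every Ctrl array and spanning the T0 range. It was above background on 5 of 6 Ctrl arrays and on none of the T0 or FSH arrays. On the scanner scale it was thus at least 1.28-fold higher in Ctrl than at T0 (limma adjusted p = 8.7e-06; means of deposited values 5.68 ± 0.28 and 6.79 ± 0.16, SD, n = 3 and 6), and with FSH at least 1.22-fold lower than in Ctrl (limma adjusted p = 1.5e-05; mean 5.75 ± 0.45, SD, n = 6). With LH it was above background on 2 of 6 arrays and the difference from Ctrl missed the threshold (limma adjusted p = 0.065).

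Clone tcay0025.a.09 read 6.52, 7.01 and 7.60 at T0 and ran from 8.42 through 8.80 to 9.82 in Ctrl. With FSH it ran from 7.76 through 7.87 to 8.12, below every Ctrl array and above every T0 array. Culture raised it 3.67-fold (log2 change 1.88 ± 0.25 SE, limma adjusted p = 6.5e-08) and FSH lowered it 2.03-fold (log2 change -1.02 ± 0.21 SE, limma adjusted p = 0.0016). In FSH against T0 it was still 1.80-fold higher (limma adjusted p = 0.0070), so the return was partial. In stage I-II the FSH change was -0.24 ± 0.21 SE (limma adjusted p = 0.94). Whether the stages differ in this was not tested.

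Among culture-lowered clones that FSH moved back and whose T0 and Ctrl arrays did not overlap, tcaa0002.m.22 and tcbk0012.l.11 rose the most in the deposited values. Clone tcaa0002.m.22 read 10.12, 10.48 and 10.51 at T0 and ran from 9.50 through 9.77 to 9.94 in Ctrl. With FSH it ran from 10.23 through 10.54 to 10.94 and with LH from 10.10 through 10.33 to 10.55. Both hormone groups lay above all Ctrl arrays and overlapped T0. Culture lowered it 1.56-fold (log2 change -0.64 ± 0.14 SE, limma adjusted p = 0.00043), FSH raised it 1.81-fold (limma adjusted p = 4.1e-06) and LH 1.51-fold (limma adjusted p = 0.0029). In stage I-II it fell 2.17-fold in culture and rose 1.86-fold with FSH and 1.62-fold with LH (limma adjusted p = 3.0e-08, 6.7e-07 and 0.00012).

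Clone tcbk0012.l.11 read 10.04, 10.18 and 10.66 at T0 and ran from 7.94 through 8.37 to 8.70 in Ctrl. With FSH it ran from 8.92 through 9.05 to 9.12, a narrow band between the other groups. Culture lowered it 3.83-fold (log2 change -1.94 ± 0.16 SE, limma adjusted p = 2.5e-13) and FSH raised it 1.59-fold (log2 change 0.66 ± 0.13 SE, limma adjusted p = 0.0016), which left it 2.41-fold below T0. LH arrays, at 7.98 to 8.82, overlapped Ctrl. This clone fell less in stage I-II, 1.66-fold, and the stages differed by -1.21 ± 0.23 SE in log2 change (limma adjusted p = 0.00048). It was chosen on stage III values that are part of that difference. Its FSH change in stage I-II was 0.22 ± 0.13 SE (limma adjusted p = 0.77), and a stage difference in FSH change was not tested.

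Among culture-raised clones that LH moved back and whose T0 and Ctrl arrays did not overlap, 1rt116k18_c_f09 and 1rt30j20_d_e10 had the greatest LH decreases. FSH lowered both as well, in a comparison that shares the Ctrl arrays. Clone 1rt116k18_c_f09 read 6.78, 6.93 and 7.07 at T0 and ran from 9.46 through 9.63 to 9.97 in Ctrl. With LH it ran from 8.40 through 8.81 to 9.04 and with FSH from 8.67 through 8.81 to 9.0. The hormone groups overlapped each other and lay clear of both T0 and Ctrl. Culture raised it 6.85-fold (log2 change 2.78 ± 0.15 SE, limma adjusted p = 3.0e-19), LH lowered it 1.91-fold (limma adjusted p = 6.7e-06) and FSH 1.84-fold (limma adjusted p = 6.8e-06), and it was still 3.59-fold above T0 with LH and 3.71-fold with FSH.

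Clone 1rt30j20_d_e10 read 7.31, 7.70 and 7.80 at T0 and ran from 9.53 through 9.81 to 10.53 in Ctrl. With LH it ran from 8.74 through 9.29 to 9.57, where 1 array reached the Ctrl range, and with FSH from 8.76 through 8.94 to 9.32, below it. Culture raised it 4.97-fold (log2 change 2.31 ± 0.18 SE, limma adjusted p = 2.3e-14), LH lowered it 1.67-fold (limma adjusted p = 0.0029) and FSH 1.90-fold (limma adjusted p = 3.8e-05). The LH call was lost in a fit on the Ctrl and LH arrays alone (limma adjusted p = 0.17). In stage I-II it fell 1.83-fold with FSH and 1.78-fold with LH (limma adjusted p = 8.5e-05 and 0.00024).

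Among culture-lowered clones that LH moved back and whose T0 and Ctrl arrays did not overlap, 1rt94b04_d_a02 and tcbk0036.f.21 rose the most in the deposited values. The positions matched to both touch a spot over 4 times brighter. Clone 1rt94b04_d_a02 read 7.57, 7.60 and 7.70 at T0 and ran from 6.43 through 7.08 to 7.36 in Ctrl. With LH it ran from 7.32 through 7.78 to 8.77, overlapping Ctrl at its lower end. Culture lowered it 1.52-fold (limma adjusted p = 0.020) and LH raised it 1.77-fold (log2 change 0.82 ± 0.17 SE, limma adjusted p = 0.0038). That call was lost with the scanner signal (log2 change 0.45, limma adjusted p = 0.14) and on the compared groups alone (limma adjusted p = 0.18). Without LH replicate 67, which read 8.77, the LH change was 0.63 (limma adjusted p = 0.025). In stage I-II the culture change was 0.09 ± 0.20 SE and the LH change -0.17 ± 0.17 SE (limma adjusted p = 0.8 and 0.62). The stage difference in culture change missed the threshold (limma adjusted p = 0.14), and that in LH change was not tested.

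Clone tcbk0036.f.21 read 7.16, 7.63 and 7.72 at T0 and ran from 6.54 through 6.83 to 7.11 in Ctrl. With LH it ran from 7.37 through 7.56 to 8.08, above every Ctrl array and overlapping T0. Culture lowered it 1.59-fold (limma adjusted p = 0.0019) and LH raised it 1.73-fold (log2 change 0.79 ± 0.14 SE, limma adjusted p = 0.00056). Its FSH change of 0.43 missed the threshold (limma adjusted p = 0.17). In stage I-II culture lowered it farther, 3.84-fold, and the stages differed by 1.27 ± 0.24 SE (limma adjusted p = 0.00050). The stage III values on which it was chosen are part of that difference.

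**Figure D4:**
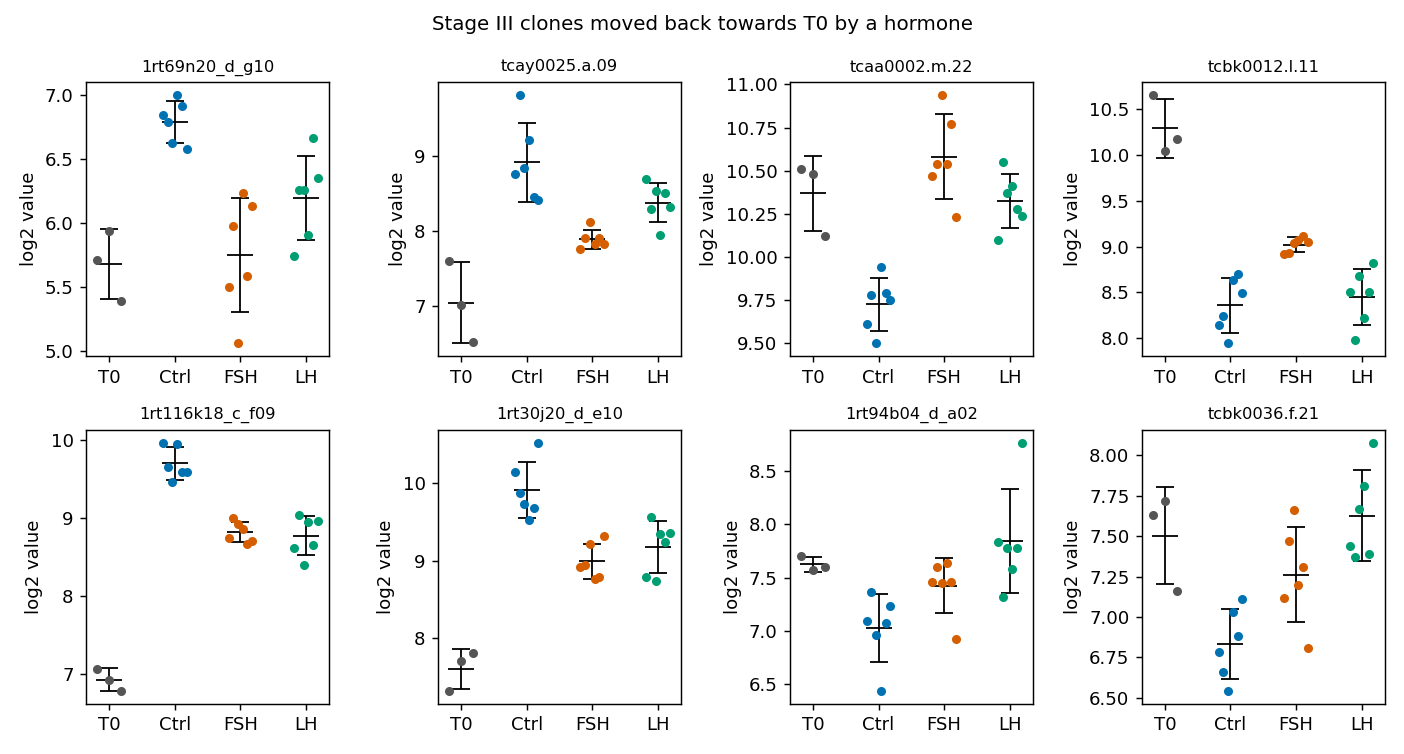
Log2 values of 8 clones that a hormone moved back towards T0 in stage III, by group (points, 1 per array; bars, mean ± SD; 3 T0 and 6 each of Ctrl, FSH and LH). The upper row holds the clones named for FSH and the lower row those named for LH. Clone 1rt69n20_d_g10 lies near background at T0 and with FSH.

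The culture change of stage III was set against that of stage I-II, whose group means come from other arrays. Both were tested in 1 fit, which shares the estimate of spread. In stage I-II 1142 clones rose and 1112 fell in culture, 27.6% of all clones. Both stages shared 777 clones that rose, 58.8% of the stage III list and 68.0% of the stage I-II list. They shared 517 that fell, 37.6% of the stage III list and 46.5% of the stage I-II list. Calls in opposite directions were made for 31 clones, of which 20 rose in stage III and 11 fell there. In deposited values, the clones that rose in stage III had a median log2 change of 0.78 in stage III and 0.57 in stage I-II. Those that fell had medians of -0.65 and -0.33, where the median over all clones was -0.04 at both stages. The lists were chosen on stage III, so their stage III medians are the larger partly by choice.

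Whether the culture change differed between stages was tested as an interaction, which called 661 clones, 8.09% (4.06% with the higher change in stage III and 4.02% with the lower). Of these, 431 were changed in stage III, where 33.0% of all clones were called. By this test 142 of the clones that rose in stage III had the higher change there, and 223 of those that fell had the lower change there. The stage III change is part of the difference tested, so these overlaps are partly set in advance. Nothing beyond the counts is read from them. A call in stage III alone did not amount to a difference between stages for most clones: 1370 clones were called in stage III only, and 1097 of them had no interaction call.

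The clones that the interaction put in front differed in kind. Clone tcay0033.f.10 read 8.40, 8.77 and 8.79 at T0 and ran from 7.70 through 8.64 to 8.81 in Ctrl in stage III, overlapping groups with a log2 change of -0.18 ± 0.18 SE (limma adjusted p = 0.48). Stage I-II values went from 10.72 ± 0.24 (SD, n = 3) to 8.02 ± 0.21 (SD, n = 6), a 6.49-fold fall. The difference was 2.52 ± 0.26 SE (limma adjusted p = 8.8e-09). Its 2 stages lay far apart before culture and near each other after it. Clone tcay0014.o.13 changed by 0.25 ± 0.23 SE in stage III (limma adjusted p = 0.43), whereas the stage I-II fall was 3.13-fold, a difference of 1.90 ± 0.33 SE (limma adjusted p = 0.00015). Its stage I-II T0 arrays did not agree among themselves, at 7.08, 9.18 and 9.19. Without stage I-II T0 replicate 3, which read 7.08, the difference was 2.60, and without replicate 2 or 1 it was 1.55 or 1.54.

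Clone tcbk0019.g.05 changed in opposite directions at the 2 stages. In stage III it read 8.09, 8.24 and 8.28 at T0 and ran from 6.59 through 7.24 to 7.79 in Ctrl, a 1.95-fold fall (limma adjusted p = 3.2e-05). In stage I-II it rose (limma adjusted p = 9.0e-05), from 6.15 ± 0.26 (SD, n = 3) to 7.07 ± 0.18 (SD, n = 6) in the deposited values. Only 1 of the 3 stage I-II T0 arrays was above background, so the size of that rise is uncertain. The difference between stages, -1.88 ± 0.25 SE in deposited values (limma adjusted p = 5.5e-06), carries the same limit, and the position matched to it touches a spot over 4 times brighter. Clone tcad0008.j.15 rose at both stages, 2.83-fold in stage III and 10.2-fold in stage I-II, a difference of -1.85 ± 0.29 SE (limma adjusted p = 4.1e-05). In stage III it read 6.81, 6.98 and 7.31 at T0 and ran from 7.99 through 8.51 to 9.07 in Ctrl. FSH and LH took it farther from T0, to 9.71 to 9.96 and 9.28 to 10.16, above all Ctrl arrays (2.52-fold and 2.18-fold, limma adjusted p = 1.3e-06 and 3.4e-05).

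**Figure D5:**
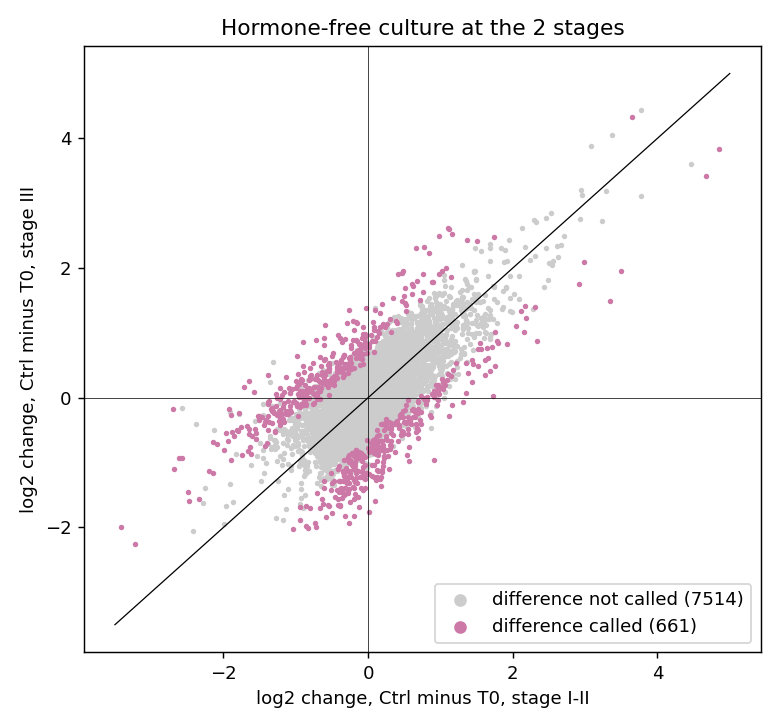
Log2 change in hormone-free culture (Ctrl minus T0) of 8175 clones in stage I-II (x axis) and stage III (y axis); the diagonal marks equal changes and purple marks the 661 clones whose change differed between stages in limma. The 2 named stage III rises, 4.44 and 4.33, stood at 3.77 and 3.64 in stage I-II.

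The stages lay closer together after culture than before it. The SD over clones of the difference between a stage III and a stage I-II array had a median of 0.63 at T0 (0.57 to 0.70 over 9 pairs) and of 0.46 between Ctrl arrays (0.38 to 0.54 over 36 pairs). The 2 ranges did not overlap. The value between Ctrl arrays of different stages was near the 0.45 found within stage III Ctrl. Pairs share arrays and so are not independent, and no test was made.

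The repeated control positions moved with culture, and also differed between the stages in Ctrl and, in stage I-II, between LH and Ctrl. Their median scanner signal was 209.5, 395.5 and 1125.5 intensity units on the 3 stage III T0 arrays and 93.5 to 166 on the 6 Ctrl arrays, with no overlap. It was 94.5 to 156 with FSH and 83 to 182 with LH. The stage III dim control positions read 32 to 36 at T0 and 29.5 to 64 in Ctrl. On stage I-II arrays the repeated control read 550.5 to 955.5 at T0 and 231.5 to 420 in Ctrl. There it was 178 to 236.5 with FSH and 103.5 to 148 with LH. With the level of the repeated control as a covariate, 1424 clones were called for stage III culture, 1358 of them among the 2695. Because that level did not overlap between T0 and Ctrl, an effect of the control signal cannot be told apart here from lost precision. Of the called clones, 40.0% were matched to a position that touches a spot over 4 times brighter, against 52.1% of all clones. What part the control signal or neighbouring spots had in single clones was not tested.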

How the data were processed

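The authors deposited 1 export of spot intensity per array from the AGScan image program, per the file headers, and a table of log2 values for the series with a normalization not given in the sources used here. Per the labels, total RNA (5 µg) was copied into 33P-labelled cDNA and hybridised to 1 membrane a sample. The members and comparisons were chosen with earlier results of these data known.

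Of 9216 table rows, 8175 clones held values on every array. The 64 water rows, the 128 cvu03687 rows and 849 clones were empty and left out. A model with the 8 group means of all 42 arrays was fitted to the log2 values in limma 3.58.1 (R 4.3.3) with empirical Bayes moderation. Tests were two-sided, Benjamini-Hochberg adjustment ran over all clones, and adjusted p-values under 0.05 were called.

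The table ran in the direction of the log2 scanner signal, uncentred (r of 0.971 to 0.997 over clones per array). That value is high partly by construction, since clones were matched to positions by their profiles over arrays (93.3% to the nearest profile), and a match may be wrong. The match serves only background calls, neighbouring spots and the scanner setting. A position was above background where it exceeded the median of the dim control positions plus 3 scaled median absolute deviations on its array. Control positions were inferred from the match. Bounds compare quantile-normalised log2 scanner means, with a dim array raised to its lowest above-background signal where it lay under that.

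Named clones are the 2 called with the greatest change in deposited values each way (for a hormone, change back towards T0), with non-overlapping T0 and Ctrl arrays except for the stage comparison. No 2 arrays were identical. The number of arrays limits precision, and p-values measure the spread between samples that may share fish. Gene and marker lists could not be used, as clones have no gene names. Other settings covered the values and their normalization, filters on dim clones, moderation, array weights, arrays in the fit, the threshold, the control level and bright neighbours.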

Additional observations from a re-analysis of the deposited data

Results flagged for a closer look

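Single arrays stood away from the others in 3 of 73 groups examined, where chance gives about 1 in 20. Clone 1rt94b04_d_a02 read 8.77 on stage III LH replicate 67, where the next array read 7.83, and 6.92 on FSH replicate 65, where the next read 7.45. Clone tcay0033.f.10 read 8.49 on stage III FSH replicate 64, above the 8.23 of the next array.

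The culture change differed between stages for 661 clones by the interaction test. The differences, stage III minus stage I-II, were 2.52 for tcay0033.f.10, 1.90 for tcay0014.o.13, -1.88 for tcbk0019.g.05 (above background on 1 of 3 stage I-II T0 arrays) and -1.85 for tcad0008.j.15.

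Signal in the repeated control positions, which are empty in the log2 table, stood higher before than after stage III culture, with a ratio of T0 to Ctrl means of 4.81. Without T0 replicate 5 the ratio was 2.52.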

How the results depend on the processing

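No paired analysis was possible because the labels tie no sample to a fish and each replicate number belongs to 1 array only. Whether the groups compared share fish is not known. The 16 results on named clones were looked at 386 times under other settings, among them a stricter threshold on the same fit. None reversed, and 3 lost the call, for the LH changes of 1rt30j20_d_e10 and 1rt94b04_d_a02 given above. These clones were chosen for the greatest called changes, so the small number of losses is partly set by the choice. The count of 2695 culture calls was 1424 with the repeated control level as covariate and 1680 without clones beside brighter spots, where fewer clones were tested. On the compared groups alone it was 2136. It was 2107 to 2719 with 1 array left out. The share of rises among the calls was 46.3% with the quantile-normalised scanner signal and 54.1% for clones above the median level. Every setting used values brought to a like level on each array, so this share is partly set by that. FSH moved back 26 clones at an adjusted p under 0.01 and 21 on the compared groups alone, and 33 to 46 with 1 array left out. LH moved back 22 with the scanner signal, 8 with array weights, 6 at an adjusted p under 0.01 and 3 on the compared groups alone, and 8 to 18 with 1 array left out. Calls held against T0 numbered 1186 with FSH and 1161 with LH under the covariate, and 1477 and 1433 without clones beside brighter spots, both settings added here after the data were seen. With 1 array left out they ran from 1744 to 2246 and from 1769 to 2151. The interaction called 1053 clones with the scanner signal and 316 at an adjusted p under 0.01, and 495 to 686 with 1 array left out. The cause of these shifts was not tested beyond the fewer clones, fewer arrays or stricter threshold named. Bins by the mean of T0 and Ctrl were chosen after the data were seen. Signal near background limits the 117 clones dim in both groups.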
